A study of Mus musculus with 18 samples.

Results

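Escape genes are X-linked genes that stay expressed from the inactive X chromosome (Xi) of female cells. The 8 genes described here, *Kdm5c*, *Ddx3x*, *Eif2s3x*, *Utp14a*, *Usp9x*, *Mbtps2*, *Sms* and *Enox2*, were taken by their symbols out of 24346 symbols in each of 18 RNA-seq libraries, and all 8 were found. The rule used their symbols and no measured value. They are called escape genes by that list, not by their values here.

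The libraries came from female mouse embryonic stem (ES) cells that carry 2 X chromosomes of different subspecies, so that SNPs tell the alleles apart. In *Tsix*-stop cells, from a laboratory strain crossed with Mus castaneus (*cast*), every library carries a transcriptional stop in the *Tsix* allele of the laboratory strain. That X becomes the Xi upon differentiation and the *cast* X the active X (Xa), and its allele is called the Xi allele here at both days, although it is only the future Xi at D0. There were 2 wild-type (wt) libraries, 2 *Kdm6a* knockout (KO) libraries and 1 CRISPR control library at D0, as ES cells, and the same numbers at D15, as embryoid bodies. *Kdm6a* is an X-linked demethylase of methylated lysine 27 of histone H3. The *Tsix*-stop KO lacks a stretch from exon 2 into exon 4 on both alleles, and the methods name a pair of KO clones. The labels do not say which library is which clone, and the CRISPR control is 1 clone. The names of the CRISPR control tables call them KO whereas their labels call them a control, and the labels are followed here. E8 cells are a cross of C57BL/6 (BL6) with *cast* without the *Tsix* stop. By the methods X inactivation in E8 is largely random, so neither allele stands for the Xi there. E8 cells gave 2 wt and 2 KO libraries each at D7 and D15 by the labels, with the *Kdm6a* promoter deleted on both alleles in 1 clone. The methods describe E8 libraries of other days, so the days of the labels are used here.

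X inactivation starts when the long non-coding RNA *Xist* coats the future Xi in cis and its genes are silenced, while escape genes keep some expression from that copy. The silenced state is usually read from the ratio of the alleles. That ratio moves towards the Xa for a silenced gene. A gene that escapes keeps some expression from the Xi, usually at a lower level than from the Xa, so its ratio can also leave balance. *Kdm5c*, *Ddx3x*, *Eif2s3x* and *Usp9x* have counterparts on the Y chromosome. *Kdm5c* is a demethylase of methylated lysine 4 of histone H3. *Ddx3x* is a DEAD-box RNA helicase that takes part in translation. *Eif2s3x* is the gamma subunit of the initiation factor that brings the initiator tRNA to the ribosome, and *Utp14a* is a nucleolar protein needed for processing the RNA of the small ribosomal subunit. *Usp9x* is a deubiquitinase. *Mbtps2* is the site-2 protease, which cuts membrane-bound transcription factors of sterol and stress responses, and *Sms* is spermine synthase. *Enox2* is an oxidase of the cell surface.

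The genes lie in 5 places on chromosome X of GRCm38, as annotated by GENCODE. *Usp9x* (13071498 to 13173328) and *Ddx3x* (13280970 to 13294052) are neighbours on the forward strand, 108 kb apart. *Utp14a* (48256862 to 48282453, forward) and *Enox2* (49009707 to 49288259, reverse) form another pair, and *Eif2s3x* (94188707 to 94212862, reverse) stands alone, 9.27 Mb from the start of *Xist*. *Kdm5c* (152233020 to 152274535, forward), *Sms* (157443855 to 157492287, reverse) and *Mbtps2* (157535371 to 157598715, reverse) lie near the distal end. *Yy2* and the gene model *Gm6568* lie within the limits of *Mbtps2*, and since the counting is not stated to use the strand, reads of *Mbtps2* and of genes it overlaps cannot be told apart where they share bases. The model *9530027J09Rik* overlaps *Utp14a* in the same way, with at most 188 counts in a library.

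Promoters of 7 of the 8 genes were matched in RefSeq (GRCm38.p6) as windows of 300 bases, 250 before the annotated start and 50 after it. Of 3 motifs searched on both strands, the YY1 core AAGATGG was found in *Kdm5c* and *Eif2s3x* and in 6.34% of 32851 promoters. The GC box GGGCGG was found in *Ddx3x*, *Eif2s3x*, *Utp14a* and 1 of 2 windows of *Sms* and in 35.7% of all promoters, and the TATA box TATAAA in none of these windows and in 13.6% of all promoters. The letters of these motifs did not overlap one another in the windows, except that 3 GC boxes of *Sms* overlapped. The 4 windows printed are those of the pair with the YY1 core, of *Ddx3x*, the most abundant of the 8 genes, and of *Enox2*, whose Xi share fell most in wt cells. Capitals mark motif matches, and *Enox2* has none.
Kdm5c: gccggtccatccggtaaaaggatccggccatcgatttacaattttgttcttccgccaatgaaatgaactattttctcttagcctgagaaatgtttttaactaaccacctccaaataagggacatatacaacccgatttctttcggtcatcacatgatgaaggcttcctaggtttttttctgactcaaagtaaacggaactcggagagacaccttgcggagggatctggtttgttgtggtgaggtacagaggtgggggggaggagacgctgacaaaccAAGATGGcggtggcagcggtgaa
Eif2s3x: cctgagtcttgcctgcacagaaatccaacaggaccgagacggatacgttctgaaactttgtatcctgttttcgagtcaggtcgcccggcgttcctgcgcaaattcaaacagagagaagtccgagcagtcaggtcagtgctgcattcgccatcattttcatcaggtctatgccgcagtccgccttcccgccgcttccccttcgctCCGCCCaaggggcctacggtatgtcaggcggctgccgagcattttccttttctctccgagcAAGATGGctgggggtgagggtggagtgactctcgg
Ddx3x: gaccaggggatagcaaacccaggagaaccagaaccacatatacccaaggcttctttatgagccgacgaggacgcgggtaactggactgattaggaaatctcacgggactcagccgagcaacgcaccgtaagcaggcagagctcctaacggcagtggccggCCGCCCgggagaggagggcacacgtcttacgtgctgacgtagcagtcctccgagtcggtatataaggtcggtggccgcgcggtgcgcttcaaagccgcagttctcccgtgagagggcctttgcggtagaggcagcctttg
Enox2: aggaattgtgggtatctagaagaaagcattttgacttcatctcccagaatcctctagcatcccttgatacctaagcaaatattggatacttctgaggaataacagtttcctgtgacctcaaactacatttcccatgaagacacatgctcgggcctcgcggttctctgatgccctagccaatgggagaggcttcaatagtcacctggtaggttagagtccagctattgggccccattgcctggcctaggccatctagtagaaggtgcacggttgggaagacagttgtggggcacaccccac
The *Kdm5c* window is chrX:152232977-152233276 on the forward strand, the *Eif2s3x* window chrX:94212602-94212901 on the reverse strand, the *Ddx3x* window chrX:13280772-13281071 on the forward strand and the *Enox2* window chrX:49288193-49288492 on the reverse strand. The YY1 core began at base 278 of the *Kdm5c* window and at base 266 of the *Eif2s3x* window, past the annotated start in both. *Enox2* had 4 CpG and an observed to expected CpG ratio of 0.219, below the median of 0.384 over all promoters, whereas in the windows of the other matched genes the ratio was 0.667 to 1.05.

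*Tsix*-stop libraries held 51091100 to 68796200 counts, of which each gene's reads with a SNP give the Xi share, the percentage of them that carry the base of the Xi allele. Over 326 other X-linked genes with at least 20 SNP reads in every library, the median Xi share was 48.8 and 49.7% in wt at D0 and 31.2 and 33.3% at D15. By D15 the KO libraries had 46.4 and 42.8% and the CRISPR control clone 34.4%. The chromosome was not uniform in wt at D0, since over the 55 genes from 150 Mb to the distal end, where *Kdm5c*, *Sms* and *Mbtps2* lie, the median share was 37.4 and 39.1% in wt, but 50.1 and 49.4% for KO and 50.2% for the CRISPR control. At D15 the wt libraries had 167 and 83.5 TPM of *Xist* (transcripts scaled to one library total, a level per length), the KO libraries 19.4 and 49.7 TPM and the CRISPR control 74.2 TPM. *Kdm6a* counts do not check the *Tsix*-stop KO, since reads from the rest of the gene still count: it was at 54.1 and 85.7 TPM in wt and 55.6 and 21.2 in KO at D0. In E8 it was at 46.7 and 47.2 TPM in wt and 0.00969 and 0.0319 in KO at D7. The 5 Y-linked homologues, *Kdm5d*, *Ddx3y*, *Eif2s3y*, *Usp9y* and *Uty*, did not exceed 0.0220 TPM in any of the 18 libraries.

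Before differentiation *Ddx3x* was by far the most abundant of the 8 genes. In wt at D0 it was at 849 and 1152 TPM, followed by *Utp14a* at 271 and 284. *Usp9x* at 147 and 240.2 and *Kdm5c* at 157 and 223 did not differ beyond the spread between libraries. *Eif2s3x* was at 61.9 and 62.4, *Sms* at 39.6 and 35.5, *Mbtps2* at 23.8 and 29.4 and *Enox2* at 17.1 and 17.6 TPM, each pair of libraries apart from the next. *Ddx3x* has a close autosomal copy, *D1Pas1*, chosen here after its values were seen, at 96.0 and 109 TPM in wt and 43.1 and 41.7 in KO at D0, so that counts of the pair may be split between them.

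Differentiation of wt cells lowered total expression of 5 of the 8 genes. *Utp14a* went from 271 and 284 TPM at D0 to 117 and 120.1 at D15, *Sms* from 39.6 and 35.5 to 19.4 and 16.0, and *Eif2s3x* from 61.9 and 62.4 to 30.6 and 35.8. *Ddx3x* fell from 849 and 1152 to 571 and 437 TPM, and the D15 libraries of these 4 genes were all below those of D0. The log2 differences in edgeR's quasi-likelihood test, with Benjamini-Hochberg adjusted p-values given as the FDR, were -1.41 ± 0.12 (SE), FDR = 1.57e-05 for *Utp14a*, -1.28 ± 0.17 (SE), FDR = 2.27e-04 for *Sms*, -1.17 ± 0.16 (SE), FDR = 1.88e-04 for *Ddx3x* and -1.09 ± 0.14 (SE), FDR = 1.59e-04 for *Eif2s3x*. *Mbtps2* fell less, by 0.59 on the log2 scale (FDR = 0.0088), from 23.8 and 29.4 to 23.3 and 16.9 TPM. *Kdm5c* at 157 and 223 and 196 and 192 TPM, *Usp9x* at 147 and 240.2 and 217 and 148 and *Enox2* at 17.1 and 17.6 and 17.1 and 17.0 did not pass an FDR of 0.1. So 5 of 8 passed, all lower, where 74.9% of 13121 genes passed in either direction and 37% were lower. The median log2 difference was -0.84 over the 8 genes and -0.27 over 492 X-linked genes tested. With the CRISPR control libraries counted as wt, all 8 passed, all lower. Markers of other cell types moved over the same days in wt, the summed level of 8 fibroblast markers from 18.2 to 22.0 TPM to 2651 to 2989 and that of 8 visceral endoderm markers, 1 of which was at 0 at D0, from 7.54 to 8.13 to 626 to 716, and their part in these changes was not tested. In bulk RNA a change in the number of cells of a type and a change of RNA per cell cannot be told apart.

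The Xi share of the 8 genes at D15 in wt ran from 3.79% to 54.2% (the plot of Xi shares by library). *Utp14a* kept most of its balance, with Xi shares of 58.4 and 59.6% at D0 and 53.7 and 54.2% at D15. *Usp9x* went from 58.0 and 55.3% to 42.9 and 47.7%, *Ddx3x* from 46.2 and 44.0% to 33.5 and 34.6% and *Kdm5c* from 40.3 and 42.5% to 37.1 and 37.7%. In each of these 4 genes both D15 libraries lay below both D0 libraries. *Mbtps2* went from 35.5 and 36.0% to 30.0 and 27.0%. *Sms* was at 43.3 and 43.0% at D0 and 39.8 and 49.7% at D15, with D0 inside the range of D15. *Enox2* lost most, from 57.1 and 53.8% to 22.3 and 25.6%, on 207 to 288 SNP reads in a library, the fewest of the 8 genes.

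**Figure D1:**
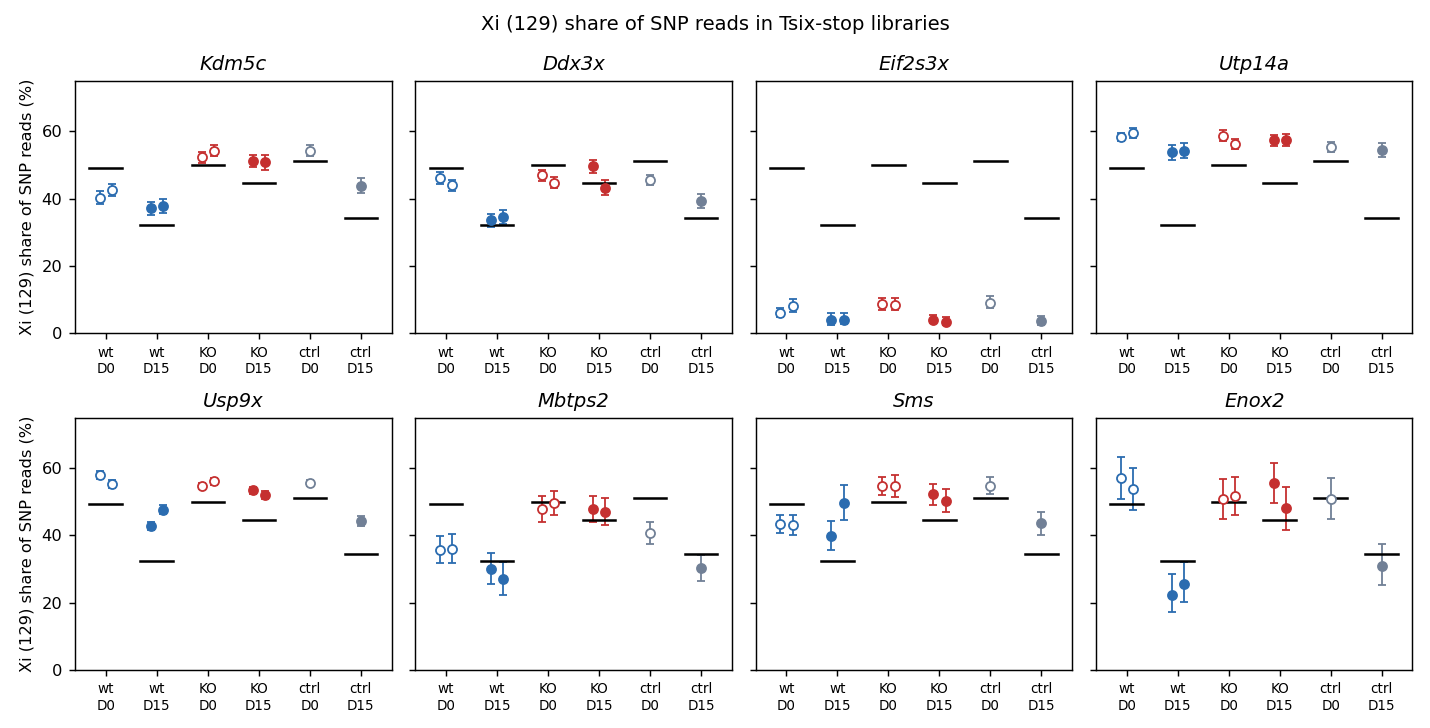
Xi share of SNP reads (%) of each gene in the 10 *Tsix*-stop libraries, by genotype and day (ctrl, CRISPR control). Points are libraries with 95% Wilson intervals, open at D0 and filled at D15, and black bars give the mean over libraries of the median share of the other X-linked genes. At D15 in wt *Utp14a*, *Usp9x*, *Sms*, *Kdm5c* and *Ddx3x* lie above the black bar, *Enox2* and *Mbtps2* below it, and *Eif2s3x* is near 0 in every library.

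*Eif2s3x* stood apart from the other 7 genes, since its Xi share was low before differentiation. At D0 wt libraries had 5.97 and 7.91%, KO libraries 8.54 and 8.35% and the CRISPR control 9.02%, on 501 to 1122 SNP reads in a library. Reads of its Xi allele were few, 19 to 87 in a library, with 19 and 20 in wt and 38 and 25 in KO at D15. Of the 326 other X-linked genes 3 had a mean share under 10% in wt at D0, and the 13 genes within 3 Mb of *Eif2s3x* had a median share of 48.1%. In E8 wt cells, where the other parent is BL6, its BL6 share was 58.4 and 58.3% at D7. For *Eif2s3x*, the Xi share at D0 is therefore not near balance in any *Tsix*-stop library, and a fall of it is a fall from a low level.

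Tested as the ratio of Xi to *cast* reads, the change from D0 to D15 in wt passed for 7 of 8 genes, all towards *cast*, where 32% of 10261 genes passed in either direction and 241 of 343 X-linked genes moved towards *cast*. The log2 differences were -1.98 ± 0.22 (SE), FDR = 7.89e-06 for *Enox2*, -0.84 ± 0.25 (SE), FDR = 0.019 for *Eif2s3x*, -0.67 ± 0.11 (SE), FDR = 2.25e-04 for *Ddx3x* and -0.66 ± 0.09 (SE), FDR = 2.96e-05 for *Usp9x*. They were -0.48 ± 0.16 (SE), FDR = 0.042 for *Mbtps2*, -0.29 ± 0.08 (SE), FDR = 0.011 for *Utp14a* and -0.24 ± 0.08 (SE), FDR = 0.045 for *Kdm5c*, and *Sms* had 0.05 ± 0.14 (SE), FDR = 0.82. The median was -0.57 over the 8 genes and -0.97 over the 343 X-linked genes, so that 7 of the 8, all but *Enox2*, changed less than the X-linked median (the plot of changes in the ratio). For *Kdm5c*, *Mbtps2* and *Sms* this change started from the low D0 shares of the distal X. *Kdm5c* no longer passed with the CRISPR control counted as wt (FDR = 0.18) or without either wt D15 library or wt D0 replicate 2 (FDR = 0.14 to 0.26). *Eif2s3x* did not pass without wt D0 replicate 2 or wt D15 replicate 1 (FDR = 0.12 in both), and *Mbtps2* without either wt D0 library or wt D15 replicate 2 (FDR = 0.11 to 0.22).

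**Figure D2:**
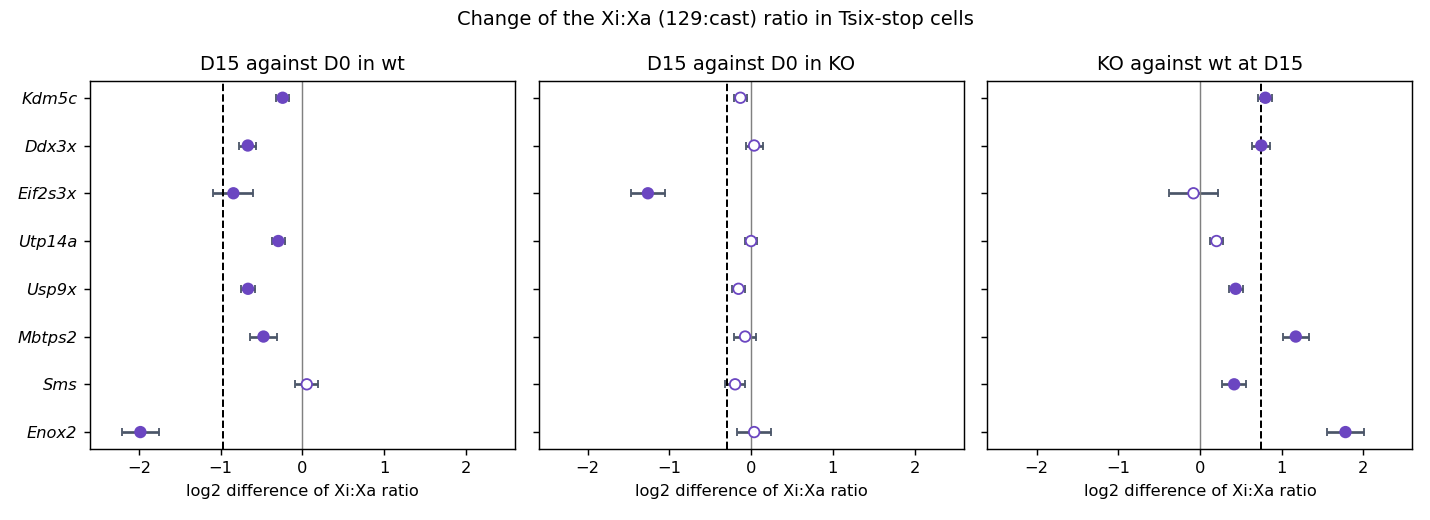
Log2 difference of the Xi:*cast* ratio ± SE in *Tsix*-stop cells between D15 and D0 in wt and in KO and between KO and wt at D15. Filled points passed an FDR of 0.1 and dashed lines mark the median of 343 X-linked genes, at -0.97, -0.29 and 0.75. In wt all genes but *Enox2* lie right of the dashed line, and in KO only *Eif2s3x* passed.

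The level per allele, TPM multiplied by the share of that allele, shows which copy carried these changes. For *Utp14a* both alleles fell in wt, from 158 and 169 to 62.9 and 65.1 TPM on Xi and from 113 and 115 to 54.1 and 55.0 on *cast*. *Sms* also fell on both, from 17.2 and 15.3 to 7.73 and 7.95 on Xi and from 22.4 and 20.2 to 11.7 and 8.04 on *cast*. *Enox2* moved in opposite directions, from 9.77 and 9.48 to 3.81 and 4.34 TPM on Xi and from 7.35 and 8.14 to 13.2 and 12.6 on *cast*. Its Xi reads fell by 1.34 (FDR = 4.61e-04) and its *cast* reads rose by 0.63 on the log2 scale (FDR = 0.015) in edgeR. Total *Enox2* was thus nearly level while the share of the alleles turned. Over the 8 genes, Xi reads passed as lower for 7, all but *Kdm5c*, against 37.4% of 10207 genes, and *cast* reads passed as lower for 5 and higher for *Enox2*, against 34.2% and 30.6%. The *cast* fall of *Ddx3x* (-0.42, FDR = 0.071) did not pass without wt D0 replicate 2, where it was -0.07, or without either wt D15 library, and that of *Mbtps2* (-0.39) did not pass without wt D0 replicate 1 or either wt D15 library. The Xi fall of *Usp9x* (-0.53) did not pass without wt D0 replicate 2 or wt D15 replicate 2.

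**Figure D3:**
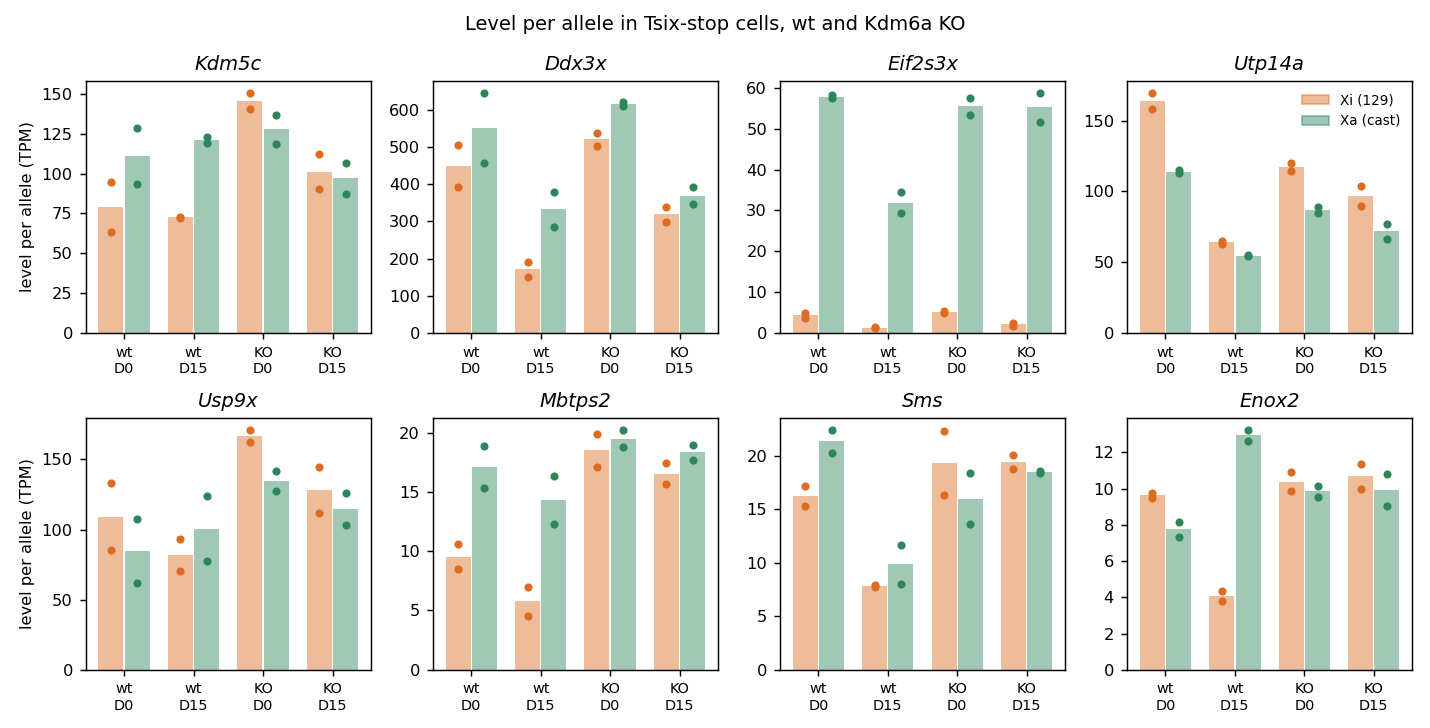
Level per allele (TPM) of each gene in wt and KO *Tsix*-stop cells at D0 and D15, Xi in orange and *cast* (Xa) in green. Bars are means of 2 libraries and points the libraries. At D15 the Xi bars are higher in KO than in wt for all 8 genes, and *Enox2* is the gene whose wt *cast* libraries at D15 both lie above those at D0.

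At D0, wt and KO cells were compared to see what differed before differentiation. Total expression differed for 1 of 8 genes, *Utp14a*, at 271 and 284 TPM in wt and 205 and 203 in KO, a log2 difference of -0.56 ± 0.11 (SE), FDR = 0.017, where 20.3% of 13121 genes passed. The fibroblast markers summed to 18.2 to 22.0 TPM in wt and 5.01 to 5.40 in KO, and their part was not tested. Of the 8 markers 3 were above 1 TPM on average in wt, the highest at up to 18.5 TPM, and 2 in KO. For *Utp14a* the CRISPR control was at 237 TPM, between wt and KO, and counting it as wt the difference had an FDR of 0.22. Without KO D0 replicate 2 its FDR was 0.11. DESeq2 called 4 of 8 genes in the same comparison, adding *Kdm5c*, *Mbtps2* and *Usp9x* as higher in KO at FDRs of 0.095 to 0.098. The ratio of alleles differed for 3 of 8 genes, those of the distal X, where 11.9% of 10261 genes passed. *Kdm5c* had Xi shares of 40.3 and 42.5% in wt and 52.3 and 54.3% in KO, *Mbtps2* 35.5 and 36.0% and 47.7 and 49.6%, and *Sms* 43.3 and 43.0% and 54.8 and 54.7%. The log2 differences of the ratio were 0.69 ± 0.08 (SE), FDR = 8.96e-06, 0.77 ± 0.14 (SE), FDR = 0.0011 and 0.67 ± 0.12 (SE), FDR = 5.84e-04. In the CRISPR control at D0 the shares were 54.3% (95% Wilson interval 52.7% to 55.9%) for *Kdm5c*, 40.6% (95% Wilson interval 37.3% to 43.9%) for *Mbtps2* and 54.8% (95% Wilson interval 52.2% to 57.3%) for *Sms*, those of *Kdm5c* and *Sms* at or next to the KO values and that of *Mbtps2* between both groups. With it added to wt only *Mbtps2* passed. The other 5 genes did not pass. *Ddx3x* was at 46.2 and 44.0% in wt and 46.9 and 44.7% in KO, which overlap, whereas *Enox2* was lower in KO without overlap, at 57.1 and 53.8% and 50.9 and 51.7%.

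**Figure D4:**
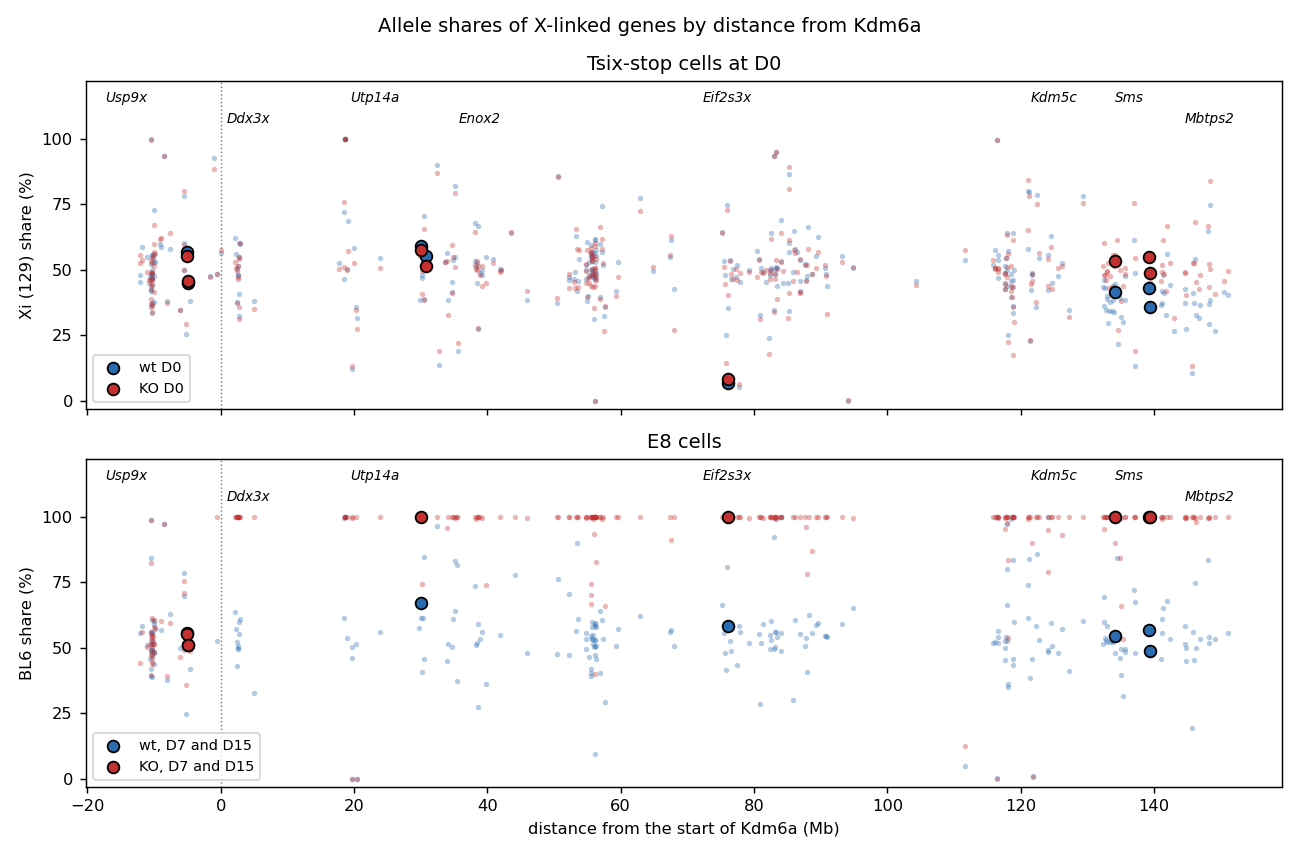
Allele share (%) of X-linked genes by distance from the start of *Kdm6a* (Mb, dotted line), as group means, with the 8 genes as large points and other genes as small ones. Above, the Xi share in *Tsix*-stop wt and KO at D0, where wt lies below KO towards the distal end. Below, the BL6 share in E8, where most genes beyond *Kdm6a* lie near 100% in KO and *Usp9x* and *Ddx3x*, before it, do not; *Enox2* has too little allelic signal in E8 to be drawn.

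At D15, 5 of 8 genes had higher total expression in KO than in wt, where 44.7% of 13121 genes passed in either direction and 21.2% were higher, among them 185 of 492 X-linked genes. *Sms* was at 19.4 and 16.0 TPM in wt and 38.4 and 37.3 in KO, and *Eif2s3x* at 30.6 and 35.8 and 61.2 and 53.5. *Mbtps2* was at 23.3 and 16.9 in wt and 36.4 and 33.4 in KO, *Utp14a* at 117 and 120.1 and 181 and 156, and *Ddx3x* at 571 and 437 and 685 and 690.2. In each of these genes wt and KO libraries did not overlap. The log2 differences were 1.11 ± 0.17 (SE), FDR = 0.0025 for *Sms*, 0.82 ± 0.16 (SE), FDR = 0.0059 for *Mbtps2*, 0.80 ± 0.14 (SE), FDR = 0.0038 for *Eif2s3x*, 0.52 ± 0.11 (SE), FDR = 0.0097 for *Utp14a* and 0.46 ± 0.15 (SE), FDR = 0.046 for *Ddx3x*. Only *Sms* passed with at least a 2-fold change, where 14.8% of genes did. *Kdm5c* was at 196 and 192 TPM in wt and 219 and 177 in KO, a log2 difference of 0.05 ± 0.17 (SE), and neither it nor *Usp9x* nor *Enox2* passed. The CRISPR control was at 32.5 TPM for *Sms*, 42.5 for *Eif2s3x*, 35.1 for *Mbtps2* and 131 for *Utp14a*. It lay between wt and KO for *Sms*, *Eif2s3x* and *Utp14a* and between the KO libraries for *Mbtps2*, and the FDR of *Mbtps2* was 0.26 when it was counted as wt. The FDR of *Ddx3x* was 0.26 without wt D15 replicate 2 and 0.13 without KO D15 replicate 1.

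Cell type markers also differed at D15. The summed level of 8 fibroblast markers was 2651 to 2989 TPM for wt, 209.9 to 265 for KO and 116 for the CRISPR control, and none of the 8 was at 0 in any of these groups. That of 8 visceral endoderm markers was 626 to 716, 25.1 to 46.4 and 21.5, that of 8 cardiac muscle markers 152 to 192, 34.5 to 49.6 and 29.0, and that of 8 pluripotency markers 8621 to 9216, 10865 to 13694 and 7750.2 TPM. Their part in the differences of total expression was not tested.

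The Xi share at D15 was higher in both KO libraries than in both wt libraries for 7 of 8 genes. The median over the 326 other X-linked genes moved the same way, at 31.2 and 33.3% in wt and 46.4 and 42.8% in KO. How many of those genes were without overlap was not counted. *Enox2* was at 22.3 and 25.6% in wt and 55.6 and 48.0% in KO, *Mbtps2* at 30.0 and 27.0% and 47.9 and 47.0%, and *Kdm5c* at 37.1 and 37.7% and 51.2 and 50.8%. *Ddx3x* was at 33.5 and 34.6% and 49.6 and 43.2%, *Usp9x* at 42.9 and 47.7% and 53.4 and 52.0% and *Sms* at 39.8 and 49.7% and 52.2 and 50.3%. *Eif2s3x*, at 3.79 and 3.98% in wt and 3.98 and 3.33% in KO, was the gene whose groups overlapped. In the test of the ratio 6 of 8 genes passed, all towards Xi, where 20.4% of 10261 genes passed in either direction and 206 of 343 X-linked genes moved towards Xi. The log2 differences were 1.78 ± 0.22 (SE), FDR = 2.99e-05 for *Enox2*, 1.17 ± 0.16 (SE), FDR = 5.17e-05 for *Mbtps2*, 0.80 ± 0.08 (SE), FDR = 4.18e-06 for *Kdm5c* and 0.75 ± 0.11 (SE), FDR = 1.29e-04 for *Ddx3x*. *Usp9x* had 0.44 ± 0.09 (SE), FDR = 0.0017, and *Sms* 0.42 ± 0.15 (SE), FDR = 0.064. *Utp14a* had 0.20 ± 0.08 (SE), FDR = 0.11 and *Eif2s3x* -0.08 ± 0.30 (SE), FDR = 0.92. The median over the 8 genes was 0.59, and that over X-linked genes 0.75. The call of *Sms* was lost with the CRISPR control counted as wt (FDR = 0.33) and without wt D15 replicate 1, where its difference was 0.09 (FDR = 0.84), as well as without KO D15 replicate 1 (FDR = 0.24) or either wt D0 library (FDR = 0.12).

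By allele, Xi reads were higher in KO at D15 for all 8 genes, where 22.7% of 10207 genes were and 225 of 340 X-linked genes. The log2 differences ran from 0.52 for *Kdm5c* to 1.65 for *Mbtps2*, with a median of 0.71 over the 8 genes and 0.77 over the X-linked genes, and 3 of the 8 lay above the latter. The level of the Xi allele was 6.98 and 4.55 TPM in wt and 17.4 and 15.7 in KO for *Mbtps2*, 3.81 and 4.34 and 11.4 and 9.99 for *Enox2*, and 72.7 and 72.3 and 112 and 90.1 for *Kdm5c*. The 8 calls on Xi fell to 5 with the CRISPR control counted as wt, *Ddx3x*, *Eif2s3x* and *Kdm5c* being lost, and to 4 without wt D15 replicate 2 or KO D15 replicate 1 and 5 without wt D15 replicate 1. *Ddx3x* and *Kdm5c* were lost in each of these 3, *Usp9x* in the first pair, and *Eif2s3x* (FDR = 0.097) in 10 of 12 alternatives. Reads of *cast* were also higher in KO for 4 genes, *Eif2s3x* at 0.83, *Sms* at 1.07, *Mbtps2* at 0.48 and *Utp14a* at 0.47 on the log2 scale, where 16.6% of genes were higher. With the CRISPR control counted as wt, *Eif2s3x* was the only one of these 4 to pass. *Mbtps2* was lost without either wt D15 library or KO D15 replicate 1, and *Utp14a* without wt D15 replicate 1 or KO D15 replicate 1. For *Kdm5c* the alleles differed in sign, with -0.28 on *cast* (FDR = 0.23) beside 0.52 on Xi (FDR = 0.049). The difference of *Enox2* on *cast* was -0.40 (FDR = 0.14).

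In KO cells themselves D15 differed little from D0 in the ratio of alleles. *Eif2s3x* was the only one of the 8 genes to pass, at Xi shares of 8.54 and 8.35% at D0 and 3.98 and 3.33% at D15, a log2 difference of -1.26 ± 0.21 (SE), FDR = 5.29e-04, where 18.4% of 10261 genes and 103 of 343 X-linked genes, towards *cast*, passed. For *Eif2s3x* these shares rest on 76 and 79 Xi reads at D0 and 38 and 25 at D15. The shares of the other 7 genes at D15 lay between 43.2% and 57.5%. KO D15 replicate 2, with the lower X-linked median share, also had the lower share of *Ddx3x* (43.2%) and *Enox2* (48.0%), and it had the higher level of *Xist*. Total expression fell in KO for *Ddx3x* (-0.79, FDR = 0.0026), *Kdm5c* (-0.52, FDR = 0.027) and *Utp14a* (-0.33, FDR = 0.033), where 65% of genes passed, and for *Ddx3x* alone without KO D0 replicate 1 or KO D15 replicate 2. *Utp14a* was also lost without KO D0 replicate 2.

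An interaction term tested whether KO and wt changed unequally over time. For the ratio it passed for 3 of 8 genes, *Enox2* at 2.02 ± 0.31 (SE), FDR = 0.0011, *Ddx3x* at 0.70 ± 0.15 (SE), FDR = 0.011 and *Usp9x* at 0.51 ± 0.12 (SE), FDR = 0.02, where 8.54% of 10261 genes and 145 of 343 X-linked genes passed. *Ddx3x* and *Usp9x* were lost with limma on the log2 ratio and with the CRISPR control counted as wt, and *Usp9x* also without wt D15 replicate 1 (FDR = 0.15). *Kdm5c*, *Mbtps2* and *Sms*, which differed between KO and wt at both days, had interactions of 0.11 ± 0.12, 0.40 ± 0.21 and -0.25 ± 0.19 (SE) that did not pass. For total expression it passed for *Sms* at 1.31 ± 0.24 (SE), FDR = 0.0081, *Utp14a* at 1.08 ± 0.16 (SE), FDR = 0.0036 and *Eif2s3x* at 0.95 ± 0.20 (SE), FDR = 0.012, where 34.1% of 13121 genes passed. With the CRISPR control counted as wt the FDR of *Sms* was 0.17. The interactions that passed were positive in both kinds, a smaller fall or a rise in KO, and none of the 8 genes passed in both.

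In the single CRISPR control clone the Xi share was lower at D15 than at D0 for all 8 genes. The median over the 326 other X-linked genes fell as well in this clone, from 51.1% to 34.4%. *Enox2* went from 51.0% (95% Wilson interval 44.9% to 57.0%) to 31.0% (95% Wilson interval 25.2% to 37.5%), *Kdm5c* from 54.3% to 43.8% (95% Wilson interval 41.6% to 46.1%) and *Usp9x* from 55.5% (95% Wilson interval 54.5% to 56.4%) to 44.3% (95% Wilson interval 42.9% to 45.7%). The share of *Utp14a* was 55.3% (95% Wilson interval 53.8% to 56.7%) and 54.4% (95% Wilson interval 52.4% to 56.5%), with intervals that overlap. At D15 the CRISPR control lay below both KO libraries for 7 of 8 genes and above both wt libraries for 5. Its median over the other X-linked genes also lay below those of KO (46.4 and 42.8%) and above those of wt (31.2 and 33.3%). How many of those genes lay so was not counted. The control values are of 1 library a day with no replicate check, and the intervals cover counting error only.

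Set beside other genes of the X, the 8 genes were spread over its range. Of the 326 other X-linked genes, 89.3% had a lower mean Xi share at D15 in wt than *Utp14a*, 81.0% than *Usp9x* and 80.7% than *Sms*. It was 66.0% for *Kdm5c*, 54.6% for *Ddx3x*, 38.0% for *Mbtps2*, 24.2% for *Enox2* and 0.613% for *Eif2s3x*. A high Xi share thus did not mark *Mbtps2*, *Enox2* or *Eif2s3x*, and that of *Eif2s3x* was already low at D0. Of 12 other genes listed as escaping, 7 were tested for the ratio, of which 5 moved towards *cast* and 1, *Xist*, towards Xi from D0 to D15 in wt. The lowest and highest of them at D15 in wt were *Shroom4* at 26.3 and 37.7% and *Xist* at 99.6 and 99.6%. In the lists of silencing times that the study used, without the 8 genes, the median log2 difference of the ratio in wt was -1.46 over 43 early, -1.25 over 40 intermediate and -0.75 over 72 late genes, and -0.84 over 18 genes listed as not silenced, beside -0.57 over the 8. Of these, 36, 32, 43 and 13 passed towards *cast*. Between KO and wt at D15 30, 26, 44 and 10 of them passed towards Xi. In wt over time *Enox2*, at -1.98, lay below the median of the early genes. Of 8 X-linked housekeeping genes known to be silenced, 7 were tested, 6 passed towards *cast* in wt, with a median of -1.07, and 5 towards Xi in KO against wt.

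In E8 KO cells the neighbours *Usp9x* and *Ddx3x* had BL6 shares of 48.8% to 56.7%, after rescaling the alleles on autosomal genes, whereas the other 6 genes had at least 99.6% in every KO library. The rescaled *cast* level was 249 and 224 TPM at D7 and 207 and 213 at D15 for *Ddx3x*, against 206 and 209.6 and 189 and 179.9 in wt. That of *Usp9x* was 56.5 and 53.4 at D7 and 65.2 and 66.5 at D15, against 54.3 and 52.2 and 60.8 and 59.0 in wt. The other 6 genes had a rescaled *cast* level of no more than 0.267 TPM in any KO library, with deposited values up to 0.918, against 56.8 and 56.3 in wt at D7 for *Utp14a*, 28.6 and 25.2 for *Kdm5c*, 20.6 and 21.5 for *Mbtps2*, 18.6 and 18.1 for *Sms*, 7.73 and 7.85 for *Eif2s3x* and 5.02 and 4.37 for *Enox2*. *Enox2* was listed at 0 on *cast* in all 4 KO libraries.

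**Figure D5:**
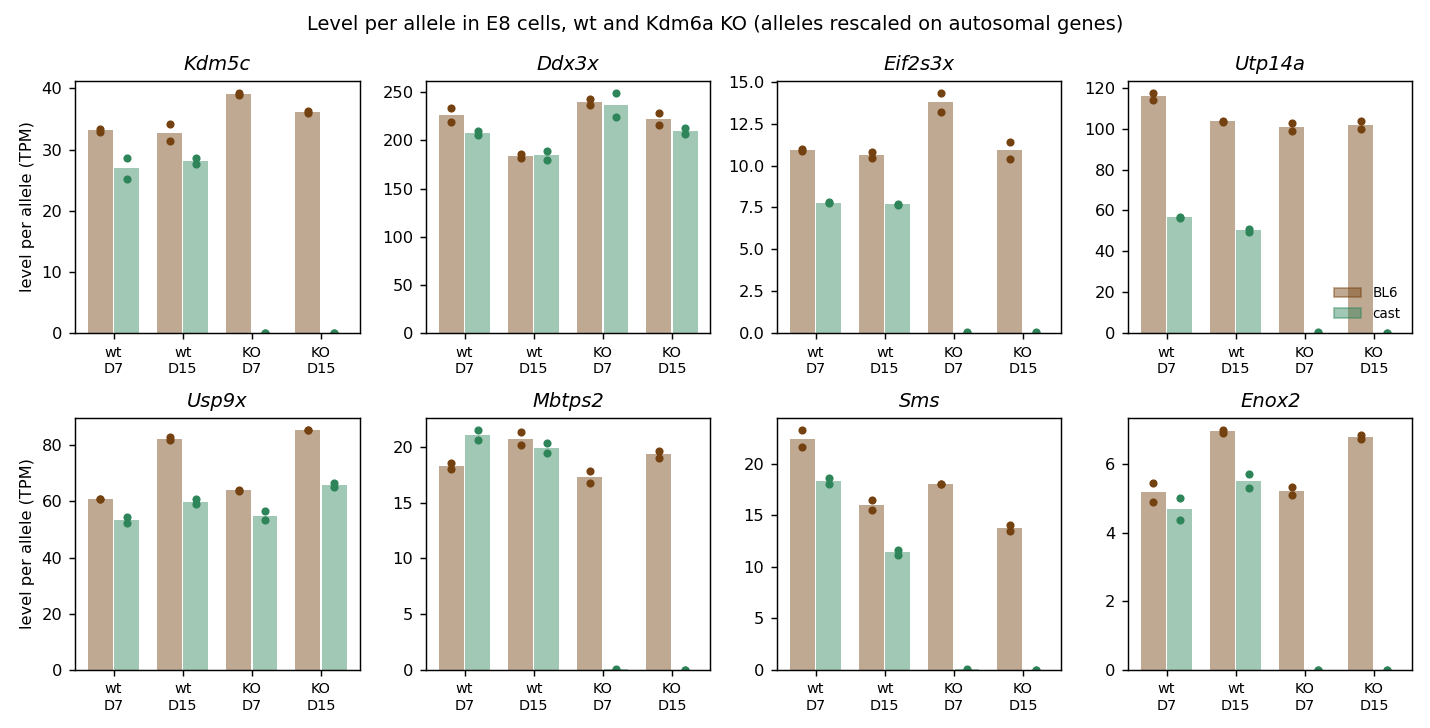
Level per allele (TPM) of each gene in E8 wt and KO cells at D7 and D15, BL6 in brown and *cast* in green, with alleles rescaled on autosomal genes. Bars are means of 2 libraries and points the libraries. The *cast* bars of 6 genes are at or near 0 in KO, and those of *Ddx3x* and *Usp9x* are not.

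Other X-linked genes of E8 KO were split by position as well. Of 229 X-linked genes beyond the start of *Kdm6a* with enough allelic signal, these genes included, 204 had a BL6 share over 90% in every KO library, and of 41 before it 3 did. In wt 14 of the 204 and 2 of the 3 already had a mean BL6 share over 90%. The last gene before *Kdm6a* with a KO share not over 90% was *Cask* (start 13517080), just past *Ddx3x*, at a mean BL6 share of 48.7% in KO, and the next measured gene, *Fundc1* (start 17556564), was at 100%. In E8 wt the BL6 shares of the 8 genes were between 45.6% and 67.8% in all 4 libraries. With largely random X inactivation, these are not shares of the Xi. These shares rest on a rescaling, because the deposited BL6 and *cast* values are each scaled to one total and the median autosomal gene had a BL6 share of 17.3% to 20.2% before it, but a value listed at 0 is 0 on either scale. Depth is unknown for E8, where only TPM was given, so no counting interval is given.

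Total expression of all 6 genes with *cast* at or near 0 was lower in E8 KO than in wt at both days. *Mbtps2* went from 39.1 and 39.6 TPM in wt to 17.9 and 16.8 in KO at D7, *Sms* from 40.3 and 41.4 to 18.1 and 18.1, *Kdm5c* from 62.1 and 58.0 to 39.2 and 38.9 and *Eif2s3x* from 18.6 and 18.8 to 14.3 and 13.3. *Utp14a* went from 171 and 174 to 103 and 99.1 and *Enox2* from 9.92 and 9.82 to 5.32 and 5.11 TPM, and in none of the 6 did wt and KO overlap. In limma on log2(TPM + 1), which understates the change of low genes, the differences of these 6 ran from -1.14 ± 0.04 (SE) for *Mbtps2* (FDR = 1.78e-07) to -0.41 ± 0.05 for *Eif2s3x* (FDR = 2.24e-04) at D7. At D15 they ran from -1.03 for *Mbtps2* to -0.59 for *Utp14a*, and all 6 passed. *Ddx3x*, at 425 and 443 TPM in wt and 487 and 468 in KO, was 0.14 higher at D7 and 0.23 at D15, and *Usp9x* was 0.09 higher at D15, but scaling each library to its median autosomal gene turned *Ddx3x* to -0.11 at D7 and *Usp9x* to -0.18 at D7 and -0.08 at D15, and left *Ddx3x* at 0.06 at D15 (FDR = 0.24), which did not pass. That scaling moved the median of all genes by -0.22 at D7 and -0.16 at D15. *Usp9x* at D15 did not pass without wt replicate 2 or KO replicate 2. In all 7 of 8 genes passed at D7 and 8 of 8 at D15, where 84.8% and 78.3% of 12452 genes passed and 415 and 421 of 452 X-linked genes, so that a call alone says little here. Over the other X-linked genes the median ratio of KO to wt TPM at D7 was 0.635 for 224 genes beyond *Kdm6a* and 1.23 for 39 before it. In the ratio of alleles 5 of 7 genes tested passed at both days, all towards BL6, against 18.9% and 14.7% of 10131 genes in either direction, while 221 and 218 of 270 X-linked genes passed towards BL6, a larger share than of the 7 genes, and no fold is given against alleles at 0.

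Markers of cell types differed between E8 KO and wt as well, and none of the markers was at 0 in these groups. The visceral endoderm markers summed to 1149 to 1152 TPM in KO and 11.7 to 13.2 in wt at D7 and to 243 to 244 and 7.37 to 8.04 at D15. The fibroblast markers were also higher in KO on both days, at 67.6 to 68.7 TPM in KO and 22.3 to 23.8 in wt at D15. The cardiac muscle markers went the other way at D7, lower in both KO than in both wt libraries, and their ranges overlapped at D15. The pluripotency markers were lower in KO on both days, at 4426 to 4568 against 12975 to 13103 TPM at D7 and 7705 to 7916 against 16626 to 17389 at D15. Their part in the differences of total expression was not tested.

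The BL6 allele of the same genes was measured in wt and KO alike. *Kdm5c* had 10.1 and 10.9 deposited BL6 TPM in wt and 12.0 and 13.6 in KO at D7, *Utp14a* 87.5 and 92.4 and 87.5 and 86.1 and *Mbtps2* 6.22 and 6.25 and 6.99 and 6.31. A limma test of this column, added after the *cast* values were seen, called 3 of 7 genes at D7, *Ddx3x* and *Kdm5c* higher and *Sms* lower, and *Ddx3x* at D15, where 58.5% and 41% of 10131 genes passed. The differences of all 7 were between -0.29 and 0.35 at D7 and between -0.14 and 0.28 at D15. With 1 library left out the D7 calls fell to 1 without either wt D7 library or KO D7 replicate 2, and the D15 call of *Ddx3x* was lost without either wt D7 library, wt D15 replicate 1 or either KO D15 library. *Xist* was at 5.63 and 6.03 TPM in E8 wt and 0.268 and 0.257 in E8 KO at D7. At D15 it was at 1.26 and 1.14 TPM in wt and 0.401 and 0.523 in KO. Between D7 and D15 none of the 7 genes tested, all but *Enox2*, passed for the ratio of alleles in wt or KO, in limma, which in wt called 0 of 10131 genes, 1017 of them having an unadjusted p under 0.05, while in KO 0.642% passed. Total expression between these days passed for 5 of 8 genes in wt and 7 of 8 in KO, where 58.6% and 75.9% of 12452 genes passed.

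The lines differed in the sign of the KO difference at D15 for 5 genes, with both KO libraries above both wt libraries in *Tsix*-stop cells and below them in E8. All 5 lie beyond *Kdm6a*, where the median E8 ratio of KO to wt TPM at D15 was 0.651 over 224 other X-linked genes. In *Tsix*-stop cells 185 of 492 X-linked genes passed as higher in KO at D15 and 84 as lower. How many other genes differed in sign between the lines was not counted. *Sms* had a ratio of mean KO to mean wt TPM of 2.14 in *Tsix*-stop and 0.502 in E8, and *Eif2s3x* of 1.73 and 0.598. *Ddx3x* was on the same side in both lines, and *Kdm5c* overlapped between wt and KO in *Tsix*-stop cells. *Enox2*, which is among the 5, did not pass in *Tsix*-stop cells (FDR = 0.104 in edgeR). The lines also differed at D15 in *Xist* and in cell type markers, given above, with visceral endoderm markers lower in KO than in wt in *Tsix*-stop cells and higher in E8. They differ besides in cross, in the *Tsix* stop, in deletion and in the state of the *cast* X. The E8 day rests on the labels, and the methods describe other days. At D15 by the labels the pluripotency markers summed to 16626 to 17389 TPM in E8 wt and 8621 to 9216 in *Tsix*-stop wt. The parts of all these differences cannot be told apart.

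For 7 of the 8 genes, those with the most similar Xi shares over the 10 *Tsix*-stop libraries were sought among 226 other X-linked genes with at least 100 SNP reads in each. By the root mean square difference, the nearest were *1110012L19Rik* for *Ddx3x* (1.77 percentage points), *Zrsr2* for *Kdm5c* (2.39) and *Zfp280c* for *Enox2* (3.11). They were *Las1l* for *Eif2s3x* (1.73), at 5.32% in wt at D0, *Hprt* for *Utp14a* (3.63), *Huwe1* for *Mbtps2* (4.0) and *Hccs* for *Sms* (4.63). *Hprt* and *Huwe1* are on the list of housekeeping genes known to be silenced. In wt *Hprt* had a mean Xi share of 53.9% at D0 and 52.0% at D15, so a share near balance was not particular to *Utp14a*. By Pearson's r of log2 CPM over the same 10 libraries, a description across libraries that share days and genotypes, *Bclaf1* (0.996) and *Kbtbd7* (0.995) came nearest to *Ddx3x*. *Ctdp1* (0.994) and *Cct3* (0.991) came nearest to *Eif2s3x*.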

How the data were processed

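RNA-seq was done on 10 *Tsix*-stop and 8 E8 libraries, and groups were taken from the labels. The *Tsix*-stop cross is of strain 129 and *cast*, so the Xi allele is the 129 allele. The authors mapped reads to mm10 (TopHat2 2.1.1 and Bowtie2 2.4.5 are named in the submitters' processing notes) and split them by strain SNPs. Annotation and strand setting are not given in the sources used here. The deposited *Tsix*-stop values are estimated counts per gene, of which 7.10% were not whole. They were rounded here, with SNP reads of each allele beside them. The deposited E8 values are TPM, scaled by the authors to 1 total in each column, so depth is unknown. TPM of *Tsix*-stop libraries was computed here from counts and GENCODE exon lengths.

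Genes that reached 2.5 CPM in 2 or more libraries went into edgeR 4.0.16 (quasi-likelihood, TMM), allele ratios with edgeR on both alleles of each library at 20 SNP reads or more, and E8 with limma 3.58.1 on log2(TPM + 1) at 2.5 TPM or more, after scaling alleles to the median of 9438 autosomal genes for ratios. p-values were adjusted over all genes tested (Benjamini-Hochberg), and an FDR of at most 0.1 is called passed. CRISPR control libraries entered no main test. With 2 libraries a group, exact permutation of single values cannot go below p = 0.333, so none was used. Where libraries of a group are not separate cultures, p-values measure technical spread. Scripts were tested on simulated data. DESeq2 1.42.0, other filters, pseudocounts, scalings and leaving out libraries were tried as alternatives. Tests of the BL6 column were added after seeing the data.

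All 8 genes are named, with the X-linked gene nearest in 129 share, the 2 genes most correlated with *Kdm5c*, *Ddx3x* and *Eif2s3x*, *Kdm6a*, *Xist* and the extremes of lists. The nearest gene to *Usp9x* and the correlated genes of *Kdm5c* are not reported here. Genes and lists were chosen with earlier results of these data known.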

Additional observations from a re-analysis of the deposited data

Results flagged for a closer look

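KO and wt *Tsix*-stop cells changed unequally over time, by edgeR's test of the interaction at an FDR of at most 0.1, for 6 genes. They come from 2 separate tests, with 3 of 8 genes in each. For total expression 34.1% of 13121 genes and 186 of 492 X-linked genes passed. For the ratio of alleles 8.54% of 10261 genes and 145 of 343 X-linked genes passed. In total expression the difference of the log2 changes was 0.95 for *Eif2s3x*, 1.08 for *Utp14a* and 1.31 for *Sms*. In the ratio of Xi to *cast* reads it was 0.70 for *Ddx3x*, 0.51 for *Usp9x* and 2.02 for *Enox2*.

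At D15 by the labels, 5 genes lay higher in both KO than in both wt libraries in *Tsix*-stop cells and lower in both in E8. The methods describe other days for E8, and *Enox2*, which is among the 5, did not pass in *Tsix*-stop cells. The ratio of mean KO to mean wt TPM in *Tsix*-stop cells was 1.73 for *Eif2s3x*, 1.42 for *Utp14a*, 1.74 for *Mbtps2*, 2.14 for *Sms* and 1.21 for *Enox2*. The difference between the lines was not tested, and how many other genes showed this order was not counted. Over 224 other X-linked genes beyond *Kdm6a* the median E8 ratio of KO to wt TPM at D15 was 0.651.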

How the results depend on the processing

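Counts of the 8 genes passing stayed within 1.5 times in most alternatives, and the cause of each exception was not tested. With the CRISPR control added to wt, the counts went from 1 to 0 for total expression at D0, 5 to 8 for wt over time, 3 to 1 for the ratio at D0 and for its interaction, 8 to 5 for Xi reads and 4 to 1 for *cast* reads at D15. It also turned *Usp9x* to 0.22 in the interaction of total expression, *Sms* to -0.18 in the wt ratio over time and *Usp9x* to -0.16 in wt *cast* reads over time. DESeq2 gave 4 at D0 for total expression, and limma 1 for the interaction of the ratio. In E8, scaling to the median autosomal gene turned *Ddx3x* to -0.11 and *Usp9x* to -0.18 at D7 and *Usp9x* to -0.080 at D15, and gave 4 in place of 1 for BL6 at D15. The deposited alleles turned the ratio of *Ddx3x* at D7 to 0.067, and a minimum of 10 allelic TPM left 3 of 5 at D7 and 3 of 5 at D15, with fewer genes tested.

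Over all genes, adding the CRISPR control changed the calls between KO and wt from 2665 to 24 at D0 and from 5864 to 2834 at D15, and those of the interaction from 4478 to 833. For the ratio they went from 1220 to 626, from 2092 to 1018, from 1885 to 1087 for KO over time and from 876 to 87 for the interaction (limma 263), and at D15 from 3704 to 1807 for Xi and from 3763 to 1760 for *cast* reads. Leaving out 1 library lowered them to at least 1339 (total, D0), 3618 (total, D15), 2916 (interaction), 1386 (ratio, D15), 478 (ratio, interaction), 2047 (Xi), 2363 (*cast*) and 2602 (BL6, D15). In E8 the higher and lower calls at D7, 6165 and 4393, became 4345 and 6352 with autosomal scaling, and at D15 5882 and 3863 became 4165 and 5834. For E8 ratios over time, 0 calls in wt became 2 with deposited alleles and 14 at 10 TPM, and 65 in KO became 184 with deposited alleles, 14 with a pseudocount of 0.1 and 27 with the replicate block, and 0 to 39 with 1 of 8 libraries left out.

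Leaving out each library in turn gave 0 to 3 genes for total expression at D0, 1 to 3 for KO over time, 4 to 7 for the wt ratio over time, 4 to 8 for Xi and 2 to 4 for *cast* reads at D15, and 1 to 3 and 0 to 1 for BL6 at D7 and D15. Differences that changed sign, none of them passing with all libraries kept, ranged in total expression from -0.094 to 0.27 (*Ddx3x*) and -0.46 to 0.019 (*Sms*) at D0, -0.13 to 0.24 (*Kdm5c*) at D15, -0.33 to 0.082 (*Kdm5c*) and -0.54 to 0.078 (*Usp9x*) for wt over time, -0.17 to 0.29 (*Sms*) and -0.078 to 0.021 (*Enox2*) for KO over time, and -0.45 to 0.18 (*Usp9x*) for the interaction. In the ratio they ranged from -0.15 to 0.0044 (*Usp9x*) and -0.019 to 0.11 (*Ddx3x*) at D0, -0.23 to 0.033 (*Eif2s3x*) at D15, -0.20 to 0.38 (*Sms*) for wt over time, -0.073 to 0.070 (*Utp14a*), -0.15 to 0.22 (*Ddx3x*) and -0.19 to 0.25 (*Enox2*) for KO over time, -0.58 to 0.00085 (*Sms*) for the interaction and -0.013 to 0.065 (*Usp9x*) in E8 at D7. In *cast* reads they were -0.045 to 0.48 (*Usp9x*) at D15, and -0.15 to 0.52 (*Usp9x*) and -0.17 to 0.067 (*Kdm5c*) for wt over time.

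Replicate numbers were not taken to pair the libraries, since the labels do not say so and deviations of same-numbered libraries correlated from -0.16 to 0.20 in *Tsix*-stop and from -0.16 to 0.12 in E8. The 0.20 is that of KO D0 with KO D15, where *Kdm6a* was also higher in replicate 1 on both days, at 55.6 and 41.6 TPM against 21.2 and 12.8. A replicate block within KO alone, added after seeing the data, gave 2 genes in place of 1 for total expression at D0, adding *Kdm5c*, and 7 in place of 6 for the ratio at D15, adding *Utp14a*. The replicate block gave 7 in place of 8 genes for Xi reads at D15 and 5 in place of 3 for BL6 at D7.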
